A study of Mus musculus with 24 samples.

Results

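The nuclear receptor superfamily was followed in 6 organs of mice without Nur77, the orphan receptor encoded by Nr4a1. The members were the 46 genes of a fixed list of nuclear receptors, and a probe belonged to a member where the platform annotation gave it that symbol. Of these, 39 genes had at least 1 probe, 61 probes in all, among 9834 named genes of the series. The other 7 (Esrrg, Nr1h2, Nr2e3, Nr3c2, Pparg, Rorb and Thra) had no probe with their symbol and were not analysed here. On the arrays, Nr4a1 was the single nuclear receptor gene that passed the test in any organ. With the ratios read as mutant over wild type, it fell to 47.8% of the wild-type level in brown adipose tissue and to 63.2% in heart. That direction is likely but not stated in the labels, and read as Cy5 over Cy3 the log2 ratios of Nr4a1 would be -0.04 and -0.05, with no call. Neither of its paralogues Nr4a2 and Nr4a3 passed in any organ where it could be tested. Their ratios changed sign with the dye that the mutant pool carried.

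Nuclear receptors are transcription factors with a shared DNA-binding domain and a ligand-binding domain. Many respond to steroids, thyroid hormone, retinoids, vitamin D, fatty acids, sterols or bile acids, while others are called orphans because no natural ligand is established. Nr4a1 (Nur77), Nr4a2 (Nurr1) and Nr4a3 (NOR-1) form the NR4A subfamily, immediate early genes that are induced within minutes to hours by many stimuli and act without a classical ligand. They bind an element called NBRE and overlap in function, and Nr4a1 and Nr4a2 also pair with retinoid X receptors. In muscle and brown fat Nur77 is known for its links to glucose use and to adrenergic signalling, and in T cells for its induction by the antigen receptor.

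The mice were Nur77-/- or wild type (Nur77+/+), with no treatment named in the labels. For strain, sex, age and the extent of the deletion, nothing is stated in the labels. RNA of lung, spleen, testis, skeletal muscle (labelled skeleton muscle), heart and brown adipose tissue was hybridised on 24 cDNA arrays with 2 dyes, 4 per organ, each setting the Nur77-/- pool beside that of the wild type. The pools held 7 mice each per the design text, while the labelling protocol speaks of 6 control animals, so the size of the wild-type pool is unsettled. Arrays 1 and 2 of each organ carried the mutant pool in Cy5, and arrays 3 and 4 carried it in Cy3. The wild-type channel of heart array 2 is labelled skeletal muscle. The same pools were hybridised repeatedly, so the tests below measure the difference between pools against hybridisation error and not the spread between animals. In whole organs, a lower share of cells of a type and less RNA per cell cannot be told apart.

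The measured quantity was the authors' deposited ratio on a log2 scale, read as mutant over wild type. Several observations bear on the direction. Nr4a1 lay below 0 on 21 of 22 arrays, over both dye orders, with an extreme value above 0 on testis array 1 left out. All 4874 values of extreme size (1.24% of the series, taken as missing) were above 0 where Cy5 marked the mutant pool and below 0 where Cy3 did. This is 1 dye direction throughout if ratios are mutant over wild type, and equally if they are wild type over mutant. In spleen, exocrine pancreas marker genes had array medians of -4.42 and -4.79 with the mutant pool in Cy5. With it in Cy3 they were -4.15 and -4.95. A pool difference keeps its sign over both dye orders only where ratios set 1 pool over the other. Read as Cy5 over Cy3, these medians would be a dye difference seen in spleen. Over all probes, arrays of 1 organ with opposite orders correlated at a median Spearman rho of -0.045. Which pool is the numerator thus rests on Nr4a1 alone, and the inverse reading would turn the sign of every ratio below. Since Nr4a1 helped to choose the direction, its like sign on the arrays and over the dye orders is a description and no independent support. Its p-values and ranks below hold only given that choice. Each array was centred on its median, and probes of a gene were averaged. A gene was tested in an organ if at least 3 of 4 arrays and both dye orders had a value. The test was limma's moderated test of an organ's ratio against 0, with a dye term and a weight for each organ, adjusted over all rows of the organ by the Benjamini-Hochberg method at a threshold of 0.05. Of the 234 combinations of 39 genes and 6 organs, 162 could be tested, and 13 genes could be tested in all 6 organs.

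The arrays held 13396 to 19455 values each. Arrays of the same organ correlated weakly across probes, at a median Spearman rho of 0.116 with the same dye order and of -0.045 with opposite orders. Many values were exact repeats. On each array they lay at the log2 of ratios of small whole numbers plus 1 constant, the pattern that ratios of a few signal units, multiplied by 1 factor per array, would give. With whole numbers up to 10 and a tolerance of 0.001, 18.8% of all values lay on these steps, from 7.73% to 39.1% per array. The constant of an array was the one with the highest share, and the median share over all constants tried was 2.48% to 3.71% per array. Marker genes of other tissues also moved. In spleen, 8 of 12 exocrine pancreas genes passed as lower (all rows 0.134%), and in lung 5 of 12 fast skeletal muscle genes did (0.121%). Of these 12 in lung, 3 lay above 0, with Mylpf highest at 2.22. In lung Ctrl of the exocrine pancreas also fell (-1.96, adjusted p = 0.0316), while Myl2 of slow and cardiac muscle rose (1.62, adjusted p = 0.0249). Their lists did not follow them there. The 10 exocrine pancreas genes tested had a median of -0.17 with 4 above 0. The 7 slow and cardiac muscle genes tested had a median of -0.18 with 4 below 0. On heart array 2 the median ratio of the fast skeletal muscle genes was 0.03, against -0.30 to 0.16 on the other heart arrays. The median of the slow and cardiac muscle genes was 0.04 on that array, against -0.425 to -0.278 on the others.

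Nr4a1 was lower in the mutant pool in brown adipose tissue on every array. Its log2 ratios there were -0.98 and -1.24 where Cy5 marked the mutant pool, and -0.94 and -1.10 where Cy3 did. The 4 values lay close together. The fitted ratio was -1.07 ± 0.13 (SE, 95% interval -1.34 to -0.79, limma adjusted p = 0.00316). Nr4a1 ranked first by p among 15223 rows tested in this organ and was the 1 row that fell (0.00657%). That p and rank rest on the direction that Nr4a1 helped to choose and are a description. Read as Cy5 over Cy3, limma's adjusted p would be 0.98. Beside it, 11 of 12 fast skeletal muscle markers lay above 0 in this organ, with a median of 0.63 and none past the test, and their part in the result was not tested. In heart the ratios were -0.89 and -0.54 in Cy5 and -0.47 and -0.74 in Cy3. All 4 were below 0, and the fitted ratio was -0.66 ± 0.12 (interval -0.92 to -0.40, adjusted p = 0.0332), rank 19 of 13844 rows. Without heart array 2, whose wild-type label is skeletal muscle, it was -0.73 (adjusted p = 0.0220). The brown adipose call was lost without array 2 (adjusted p = 0.144), and the heart call without array 1, 3 or 4 (adjusted p = 0.0550, 0.118 and 0.187). The heart call was also lost without testis array 2 or skeletal muscle array 2 or 3, arrays of other organs (adjusted p = 0.0512, 0.0541 and 0.0584). Both calls were lost with equal weights (adjusted p = 1 in each), and both held with 1 weight per array (adjusted p = 0.0272 in heart and 0.00112 in brown adipose tissue).

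Skeletal muscle gave the lowest ratio of Nr4a1, at -2.11 and -1.32 in Cy5 and -0.67 in Cy3, with no value on array 4. The 3 values were all below 0 but spread widely, and the fitted ratio of -1.35 (interval -2.38 to -0.32) did not pass (adjusted p = 0.583). It passed with equal weights for all organs (adjusted p = 0.00994) and with 1 weight per array (0.0376). In spleen the ratios were -0.85, -0.44, -0.73 and -0.76, a fitted -0.70 (interval -1.42 to 0.03). Lung had -0.14, -0.26, -0.85 and -0.23, a fitted -0.37 (interval -0.81 to 0.06), where array 3 stood apart from the others. Testis had -0.52 in Cy5 and -0.17 and 0.08 in Cy3, a fitted -0.22 (interval -0.67 to 0.24). The testis value of array 1, in Cy5, was above 0 and of extreme size, and was taken as missing. With extreme values kept, the testis ratio was 4.10. In this direction, the order from the lowest ratio was skeletal muscle, brown adipose tissue, spleen, heart, lung and testis, and the intervals of all neighbours in that order overlapped. The difference between organs did not pass limma's F test (adjusted p = 0.715). Read as Cy5 over Cy3, the ratios would be -0.68 in skeletal muscle, -0.38 in testis, -0.05 in heart, -0.04 in brown adipose tissue, 0.05 in spleen and 0.17 in lung, so the order would not hold.

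Over the organs, the mean of the organ means of Nr4a1, with both dye orders weighted equally, was -0.71 ± 0.36 (SD, n = 6 organs), below 0 in 6 of 6 organs. With extreme values kept, that mean was 0.02 and testis lay above 0. Being below 0 in all 6 organs held for 3.06% of the 7553 rows tested everywhere, and 1 sign in all 6 for 5.92%. Over those rows, limma's test of the organ means called 0%, and Nr4a1 had an adjusted p of 0.725. In the direction used here, and with the extreme testis value left out, the signal at the Nr4a1 probe was 39.2% of wild type in skeletal muscle to 86.0% in testis. Which stretch of the transcript that probe covers is not given in the sources used here, so its signal does not measure intact Nur77 RNA.

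**Figure D1:**
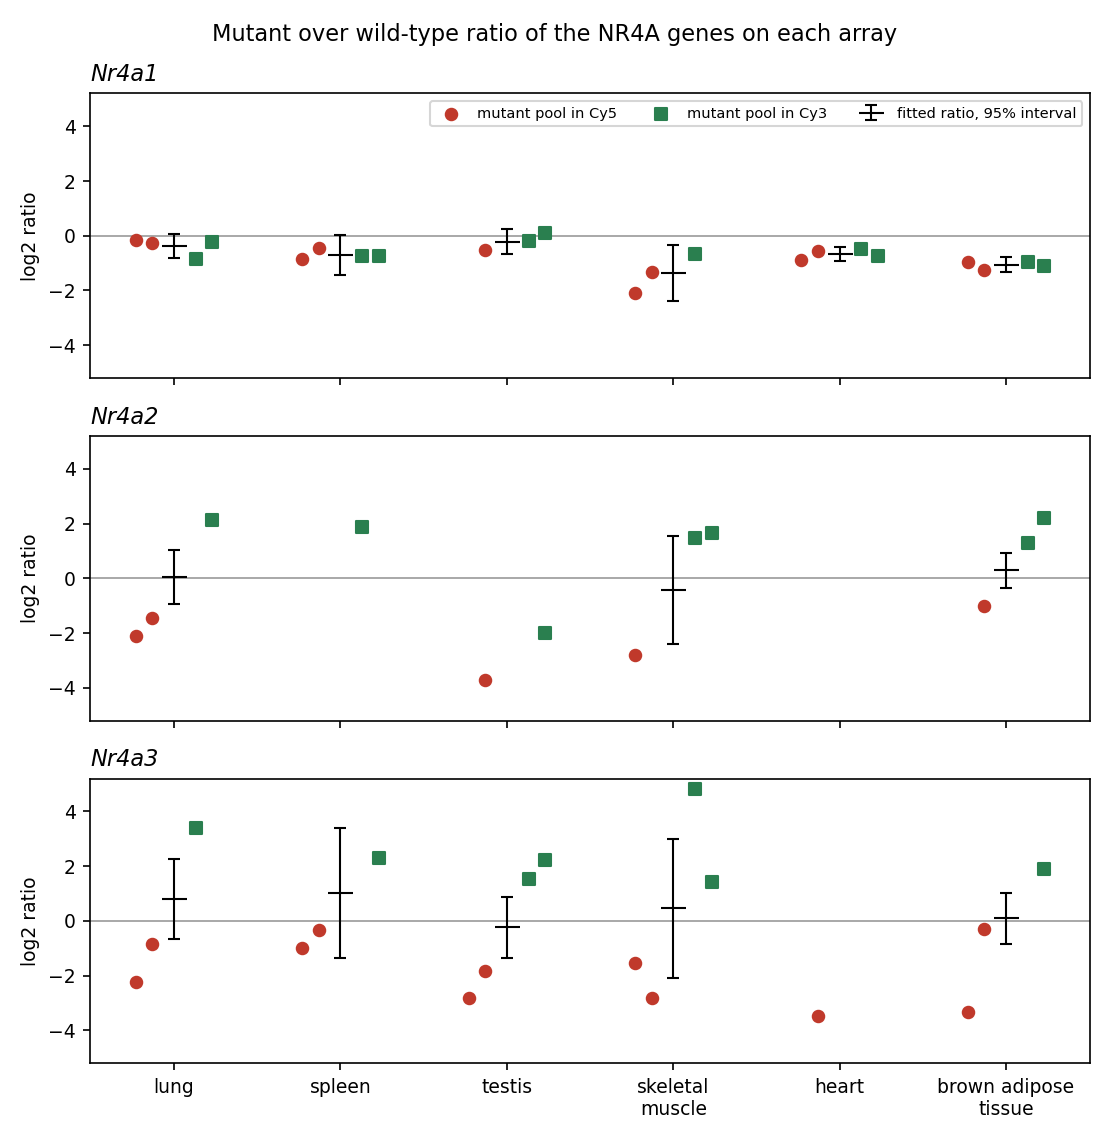
Log2 ratio, mutant over wild type (y axis), of Nr4a1, Nr4a2 and Nr4a3 on each array of the 6 organs (x axis). Circles are arrays where Cy5 marked the mutant pool, squares those where Cy3 did, and bars the fitted ratio with its 95% interval. Nr4a1 lies below 0 with both dyes on 21 of 22 arrays, while Nr4a3 lies below 0 on all 11 Cy5 arrays and above 0 on all 7 Cy3 arrays. The extreme Nr4a1 value of testis, above 0, is left out.

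Nr4a2 and Nr4a3 are the genes in which compensation for a lost Nr4a1 would first be looked for. Nr4a2 could be tested in 3 organs. In lung its ratios were -2.11 and -1.44 in Cy5 and 2.15 in Cy3. In brown adipose tissue they were -1.01 in Cy5 and 1.28 and 2.19 in Cy3, and in skeletal muscle -2.79 in Cy5 and 1.46 and 1.67 in Cy3. In each of these organs the dye orders lay on opposite sides of 0. The fitted ratios were 0.06 in lung (interval -0.92 to 1.04), 0.29 in brown adipose tissue (-0.34 to 0.93) and -0.41 in skeletal muscle (-2.39 to 1.57). As levels relative to wild type, the brown adipose interval runs from 0.789 to 1.90 times and the lung interval from 0.527 to 2.06 times. In spleen and testis there were too few values, with 1.89 in Cy3 in spleen, and -3.73 in Cy5 and -1.98 in Cy3 in testis. Heart had no value.

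Nr4a3 could be tested in 5 organs. In testis its ratios were -2.83 and -1.83 in Cy5 and 1.53 and 2.23 in Cy3. In skeletal muscle they were -1.55 and -2.83 in Cy5 and 4.83 and 1.41 in Cy3. Both organs show opposite signs for the dye orders, and so did the other 3. Lung had -2.22 and -0.86 against 3.41, spleen -0.99 and -0.32 against 2.32, and brown adipose tissue -3.34 and -0.30 against 1.88, the Cy5 arrays first. The fitted ratios were 0.80 in lung (interval -0.65 to 2.25), 1.02 in spleen (-1.37 to 3.41), -0.23 in testis (-1.34 to 0.89), 0.47 in skeletal muscle (-2.07 to 3.0) and 0.10 in brown adipose tissue (-0.83 to 1.03). The highest change that the interval allows was 10.6 times the wild-type level in spleen, 8.01 times in skeletal muscle and 4.75 times in lung, against 2.04 times in brown adipose tissue and 1.85 times in testis. An exact two-sided sign-flip permutation test over organ means gave p = 1 for Nr4a2 in 3 organs and p = 0.188 for Nr4a3 in 5 organs, where the smallest possible values are 0.25 and 0.0625. Changes within these intervals are not excluded, but the intervals are no limits of detection. Calls used p-values adjusted over all rows of an organ, so a ratio whose interval excludes 0 can also miss the threshold. Read as Cy5 over Cy3, these bounds would not hold: Nr4a3 would be at -2.65 in skeletal muscle, -2.22 in lung, -2.10 in testis, -1.90 in brown adipose tissue and -1.27 in spleen. Nr4a2 would be at -1.98 in lung, -1.89 in skeletal muscle and -1.41 in brown adipose tissue, and neither gene would pass in any of these organs (lowest adjusted p = 0.119).

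The start regions of the NR4A genes are shown because these genes are induced together by cAMP and calcium signals, through elements bound by CREB. The sequences are RefSeq promoters of build GRCm38.p6, from 250 bases before to 50 after the start, printed 5′ to 3′ on the gene's strand. Capitals mark TGACG, the half-site of the cAMP response element, on either strand, so that CGTCA is the same half-site on the other strand. Nr4a1 lies at chr15:101266596-101266895 (plus strand), Nr4a2 at chr2:57123954-57124253 (minus strand) and Nr4a3 at chr4:48045055-48045354 (plus strand).
Nr4a1: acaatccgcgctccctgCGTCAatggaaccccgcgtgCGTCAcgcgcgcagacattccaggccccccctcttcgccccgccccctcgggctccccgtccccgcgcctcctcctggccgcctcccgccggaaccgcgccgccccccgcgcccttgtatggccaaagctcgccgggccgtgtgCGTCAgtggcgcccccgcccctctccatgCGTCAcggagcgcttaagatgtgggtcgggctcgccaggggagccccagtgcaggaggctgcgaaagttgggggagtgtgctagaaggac
Nr4a2: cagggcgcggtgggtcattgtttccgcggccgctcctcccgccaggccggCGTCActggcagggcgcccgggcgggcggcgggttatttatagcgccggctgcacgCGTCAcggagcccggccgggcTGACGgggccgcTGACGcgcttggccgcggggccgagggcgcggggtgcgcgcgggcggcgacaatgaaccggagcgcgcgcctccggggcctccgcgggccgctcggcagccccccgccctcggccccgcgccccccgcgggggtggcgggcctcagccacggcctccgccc
Nr4a3: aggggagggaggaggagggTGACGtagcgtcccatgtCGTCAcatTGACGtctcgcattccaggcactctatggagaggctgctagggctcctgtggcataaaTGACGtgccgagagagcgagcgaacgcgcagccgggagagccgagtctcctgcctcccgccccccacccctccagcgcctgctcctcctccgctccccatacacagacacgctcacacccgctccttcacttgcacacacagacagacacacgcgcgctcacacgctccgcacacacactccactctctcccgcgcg
Each of the 3 promoters held 4 half-sites, a count reached by 0.231% of 32851 promoters, while 20.8% held at least 1. The motif was chosen after the sequences were read. The full element TGACGTCA, which contains the half-site on both strands, occurred in 1.79% of promoters and in none of these 3. The NR4A element NBRE (AAAGGTCA, either strand, no overlap with TGACG) occurred in 1.51% of promoters. Among 42 nuclear receptor genes with a promoter in the table, Rxrg and Rxra held one, and these 2 encode partners of Nur77. Both are shown with NBRE in capitals, Rxrg at chr1:167618149-167618208 and Rxra at chr2:27709216-27709275, both on the plus strand.
Rxrg: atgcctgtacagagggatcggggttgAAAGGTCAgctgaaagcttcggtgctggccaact
Rxra: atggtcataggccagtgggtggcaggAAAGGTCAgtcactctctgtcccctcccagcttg
The element starts 90 bases before the start of Rxrg and 50 bases before that of Rxra. A match is a match of letters and no measurement of binding.

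Among the retinoid X receptors, the shared dimer partners of many nuclear receptors, none passed in any organ. Rxrg, a form found in muscle and brain, had ratios of 0.30 in Cy5 and 0.19 and 0.20 in Cy3 in heart, a fitted 0.27 (interval -0.60 to 1.13). In testis it had 3.87 and 0.10 in Cy5 and 0.51 in Cy3, where 1 array stood far above the others. Its fitted ratio there was 1.46 (interval 0.17 to 2.74, adjusted p = 0.761). Rxra had -2.94 and -2.87 in Cy5 and -1.60 in Cy3 in spleen, a fitted -2.07 (interval -4.26 to 0.12). In lung, brown adipose tissue, testis and skeletal muscle its dye orders had opposite mean signs, with the largest gap in skeletal muscle (-3.64 in Cy5, mean 2.43 in Cy3). Rxrb was at -0.60 and -0.96 in Cy5 and -0.48 and -0.65 in Cy3 in heart. These 4 values were close together, and the fitted -0.67 (interval -1.29 to -0.05) missed the threshold (adjusted p = 0.431).

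Counted over the whole superfamily, the tests called few genes. In lung 0 of 29 members passed, where 0.17% of all rows did, and 3 had an unadjusted limma p below 0.05 (all rows 8.52%). In spleen 0 of 26 passed (all rows 0.152%), with 0 at the unadjusted threshold (5.55%). In testis 0 of 23 passed (0.0147%), with 4 at the unadjusted threshold (6.23%), and in skeletal muscle 0 of 24 (0.125%), with 2 (4.78%). In heart 1 of 24 passed (0.166%), with 4 at the unadjusted threshold (10.4%), and in brown adipose tissue 1 of 36 (0.0197%), with 2 (4.81%). Both calls were Nr4a1. Outside Nr4a1, 12 of 156 combinations (7.69%) reached an unadjusted p below 0.05, against 6.74% of 78187 for all rows. The receptors other than Nr4a1 were thus near the background of the arrays. The median ratio of members was -0.64 in spleen, -0.32 in lung and -0.28 in skeletal muscle, and -0.14 in testis, -0.05 in brown adipose tissue and 0.06 in heart. The medians of all rows lay between -0.02 and 0.00.

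**Figure D2:**
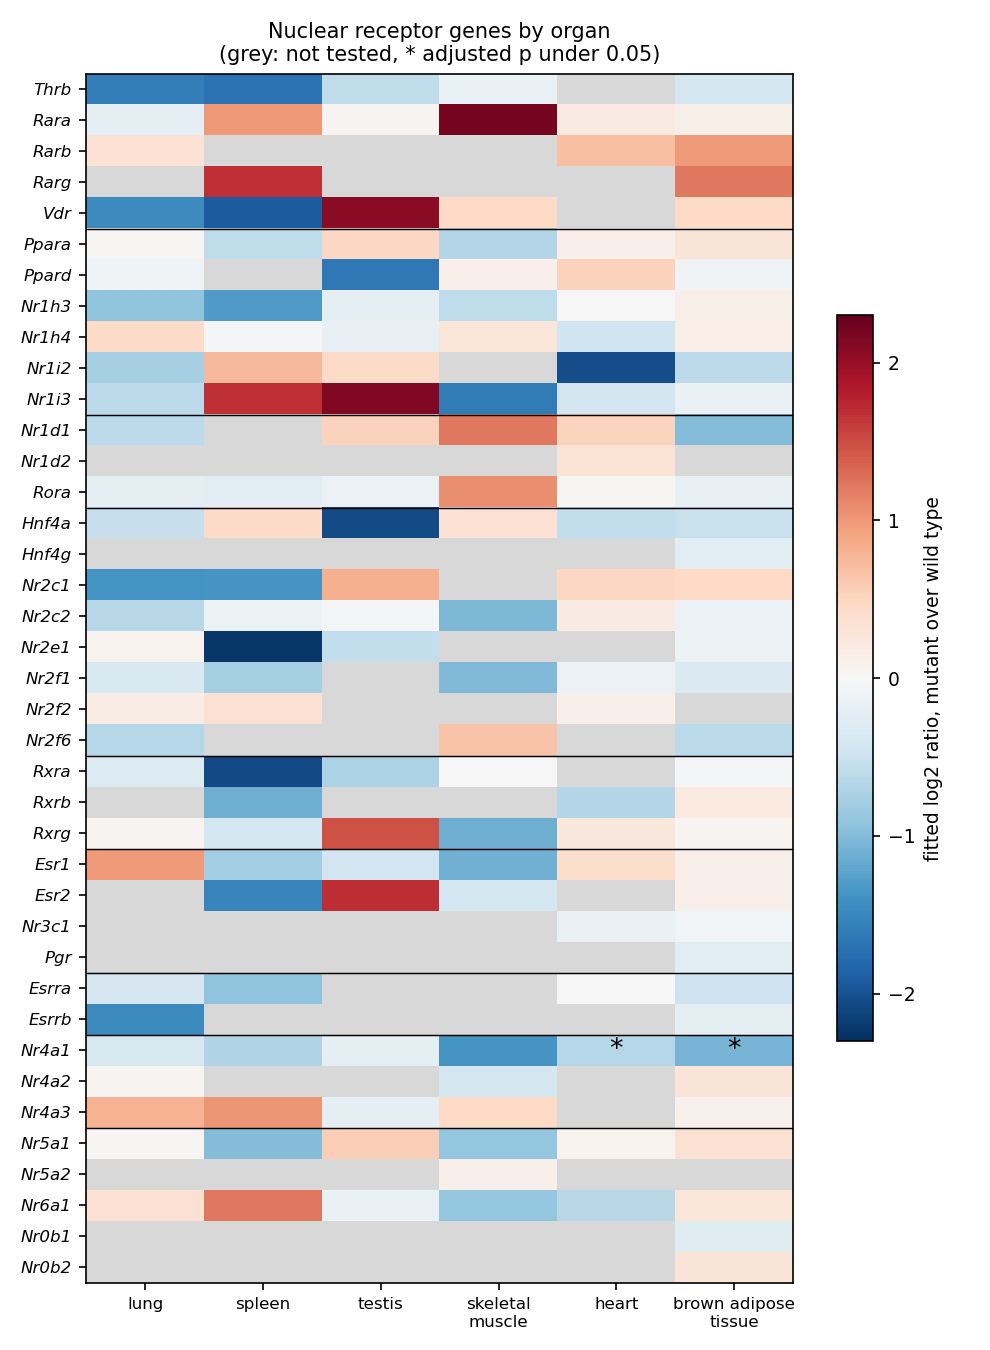
Fitted log2 ratio, mutant over wild type (colour), of the 39 nuclear receptor genes with a probe (rows, grouped by role) in the 6 organs (columns). Grey cells could not be tested and a star marks an adjusted p under 0.05. The 2 stars are Nr4a1 in heart and in brown adipose tissue, and Nr4a1 is below 0 in all 6 organs, with extreme values left out.

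Precision differed between organs. The median half-width of the 95% interval of members was 0.77 in heart and 0.86 in brown adipose tissue, 1.23 in lung and 1.23 in testis, 2.17 in spleen and 2.61 in skeletal muscle, all on the log2 scale. In 31 of the 162 combinations, the interval lay within 1 log2 unit of 0 on both sides, 15 of them in brown adipose tissue, 11 in heart, 3 in testis and 2 in lung. In spleen and skeletal muscle no member reached that precision. Among the members bounded in this way in brown adipose tissue were Ppara at 0.29 (interval -0.17 to 0.75) and Nr1h3 at 0.13 (-0.55 to 0.81). Heart bounded Ppara at 0.12 (-0.32 to 0.55) and Rara at 0.21 (-0.32 to 0.74).

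**Figure D3:**
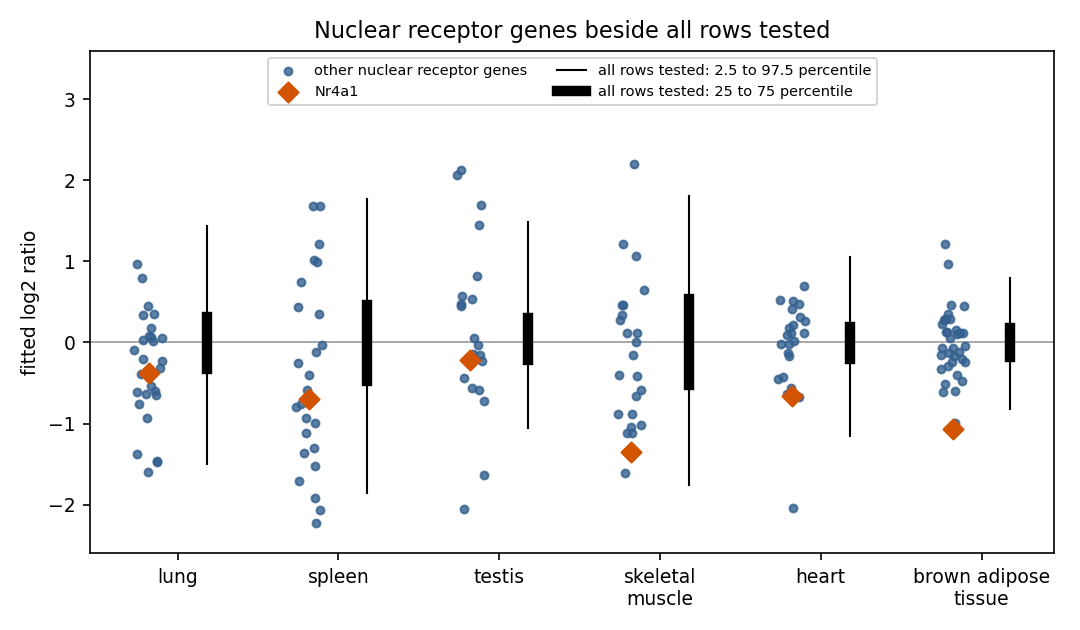
Fitted log2 ratio, mutant over wild type (y axis), of each nuclear receptor gene tested in the 6 organs (x axis), with Nr4a1 as a diamond. Thick bars give the middle 50% and thin bars the middle 95% of all rows tested. In brown adipose tissue Nr4a1 lies below the lower end of the thin bar (-0.82), and 1.02% of rows are lower.

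The receptors for thyroid hormone, retinoic acid and vitamin D gave no call. Thrb, a thyroid hormone receptor, was below 0 in all 5 organs where it could be tested, from -1.70 in spleen to -0.15 in skeletal muscle. That sign is of averaged probes. The array means of its 2 probes were -1.40 and 0.445 in testis and 0.23 and -1.12 in skeletal muscle. In brown adipose tissue they were 0.57, from 1 array, and -0.95. In lung its ratios were -2.85 and -2.10 in Cy5 and -0.26 in Cy3, a fitted -1.59 (interval -2.76 to -0.43, adjusted p = 0.368). Its Cy5 arrays were all below 0 (10 of 10), while 4 of 9 Cy3 arrays were above. Rara, which mediates retinoic acid signals in most tissues, had ratios of 2.23 and 4.28 in Cy5 and 0.20 in Cy3 in skeletal muscle, a fitted 2.20 (interval 0.10 to 4.30, adjusted p = 0.966). Rarb and Rarg lay above 0 in each organ tested, Rarb from 0.34 to 0.97 in 3 organs and Rarg at 1.69 in spleen and 1.22 in brown adipose tissue. All these intervals included 0, and Rarg in spleen ran from -2.88 to 5.83 over arrays. In organs with too few values, Rarg was at -1.63 and -0.85 in lung and at -0.62 and -0.55 in heart. Rarb was at -2.05 and -1.23 in skeletal muscle. Testis had 2.21 for Rarb, and -0.67 and 1.26 for Rarg. Vdr, the vitamin D receptor, had 1.22 and 0.93 in Cy5 and 1.14 and 4.99 in Cy3 in testis. All were above 0, with array 4 far above the others, and the fitted ratio was 2.07 (interval 0.80 to 3.34, adjusted p = 0.514).

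Lipid and xenobiotic sensors likewise did not pass. Ppara, which drives fatty acid oxidation, ranged over the 6 organs from -0.67 in skeletal muscle to 0.47 in testis. Its testis ratios of 0.29, 0.44, 0.79 and 0.37 were all above 0 (interval -0.18 to 1.12). Ppard, a fatty acid sensor of muscle and many other tissues, had -0.32, -4.87, -0.95 and -0.43 in testis, a fitted -1.64 (interval -2.95 to -0.33, adjusted p = 0.717) that leant on array 2. On all 10 Cy3 arrays with a value Ppard was below 0, and on 7 of 11 Cy5 arrays it was above. Nr1h3, the oxysterol receptor LXR alpha, was below 0 in 5 of 6 organs with a mean of -0.48 ± 0.20 (SE over organ means, adjusted p = 0.725), from -1.30 in spleen to 0.13 in brown adipose tissue. Nr1h4, the bile acid receptor FXR, lay between -0.45 in heart and 0.45 in lung.

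The xenobiotic receptors Nr1i2 (PXR) and Nr1i3 (CAR), best known from liver, had large ratios in several organs. Nr1i2 in heart had -1.25 and -3.40 in Cy5 and -1.61 in Cy3, a fitted -2.05 (interval -3.83 to -0.26, adjusted p = 0.389). On each of these 3 arrays a probe of Nr1i2 sat on a whole-number step, at 1 over 4, 1 over 3 and 1 over 3. Nr1i3 in testis had 4.18 and 5.49 in Cy5 and -1.61 and 0.43 in Cy3. The dye orders differed widely, and the fitted ratio was 2.13 (interval 0.49 to 3.77, adjusted p = 0.717). In spleen Nr1i3 had 0.71, 1.56, 2.66 and 1.81, a fitted 1.69 whose interval ran from -1.35 to 4.72.

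REV-ERB and ROR receptors set the phase of the circadian clock. Nr1d1 (REV-ERB alpha) in brown adipose tissue had -3.02 and -1.53 in Cy5 and 1.26 and -0.70 in Cy3, so the arrays disagreed in sign. Its fitted ratio was -0.997 (interval -1.99 to -0.01), with an adjusted p of 1. The value of -3.02 on array 1 is a step of 1 over 8, and Nr1i2 and Nr0b2 carried the same value on that array. Rora lay between -0.26 and 0.02 in lung, spleen, testis, heart and brown adipose tissue and at 1.06 in skeletal muscle (interval -2.17 to 4.29). Nr1d2 could be tested in heart only, at 0.31 (interval -4.74 to 5.36).

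In the group of HNF4, testicular receptors, TLX and COUP-TF receptors, 6 of 7 members tested were below 0 in brown adipose tissue and 5 of 7 in lung, and none passed. Nr2f1 (COUP-TFI) was below 0 in all 5 organs tested, from -1.02 in skeletal muscle to -0.13 in heart, and Nr2f2 (COUP-TFII) was above 0 in all 3, from 0.12 to 0.35. All these intervals included 0. Where it was not tested, Nr2f2 was at 2.08 in brown adipose tissue, -4.25 in testis, and -1.79 and 0.51 in skeletal muscle. Hnf4a, a regulator of liver, gut and pancreas genes, had -0.70, -0.77, -0.18 and -0.42 in brown adipose tissue, a fitted -0.52 (interval -2.10 to 1.07). In lung its ratios were -2.45, -1.88, -2.85 and 5.03, where array 4 had the opposite sign. Its 2 probes differed there, with array means of -2.83 and 0.67, and the lower one passed when each probe was kept as a row of its own (ratio -2.91, adjusted p = 0.00795). Probes of 1 gene often differed in this way. In 45 combinations of gene and organ with several tested probes, 28 had probes of opposite sign, with a median gap of 0.88.

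Steroid hormone receptors and oestrogen-related receptors gave no call. Esr1 (oestrogen receptor alpha) had 1.91, 0.13, 0.61 and 1.24 in lung, all above 0, with a fitted 0.97 (interval 0.17 to 1.77, adjusted p = 0.457). In skeletal muscle it had -0.81, -0.76, -2.36 and -0.52, all below 0, with a fitted -1.11 (interval -2.75 to 0.52). In heart it had 0.24, 0.01, 0.22 and 1.18, a fitted 0.41 (interval -0.07 to 0.89). Esr2 lay between -1.52 in spleen and 1.70 in testis over 4 organs. Nr3c1, the glucocorticoid receptor, was at -0.16 in heart and -0.07 in brown adipose tissue, and Pgr at -0.25 in brown adipose tissue. Esrra, a regulator of mitochondrial genes, was below 0 in all 4 organs tested, from -0.93 in spleen to -0.02 in heart. All 4 intervals included 0, and its single values where not tested were 3.32 in skeletal muscle and 0.02 in testis. Esrrb in lung had -2.15 in Cy5 and -0.90 and -0.86 in Cy3, a fitted -1.46 (interval -2.37 to -0.55, adjusted p = 0.341), and was at -0.20 in brown adipose tissue.

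Nr5a1, the steroidogenic factor of adrenal and gonad, was at 0.57 in testis (interval -0.42 to 1.56), where Leydig and Sertoli cells express it. Nr5a2, a regulator of exocrine pancreas and liver genes, had -3.17 in Cy5 and -1.10 in Cy3 in spleen, too few values for a test. Hnf4g had -5.47 and -1.47 on the same arrays. Hnf4a, which also regulates pancreas genes, had 0.89 and -0.57 in Cy5 and 0.90 and 0.51 in Cy3 in spleen, a fitted 0.43 (interval -3.74 to 4.60). Beside them, the exocrine pancreas markers of spleen had medians of -4.95 to -4.15 per array, and their part in these ratios was not tested. Nr6a1 (GCNF), known from germ cells, had -1.65, -0.46, -0.25 and -0.18 in heart, a fitted -0.64 (interval -1.18 to -0.10, adjusted p = 0.370), and was at -0.16 in testis. Nr0b1 (DAX-1) and Nr0b2 (SHP), receptors without a DNA-binding domain, could be tested in brown adipose tissue only, at -0.28 and 0.29.

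The sign of several members followed the dye order. The dye term, the ratio on Cy5 arrays minus that on Cy3 arrays, passed for 4 of 30 members tested in at least 3 organs, where 1.38% of all rows did. All 4 were negative (1.09% of all rows), and 7 members had an unadjusted p below 0.05 (16.8%). Nr2e1 (TLX), known from neural stem cells, ranged from -4.59 to -0.42 on 9 Cy5 arrays and from -2.01 to 3.05 on 9 Cy3 arrays. It was below 0 on 9 of 9 Cy5 arrays and above 0 on 8 of 9 Cy3 arrays, with a dye term of -4.62 ± 0.81 (SE, limma adjusted p = 0.0246), a 24.6-fold gap. Nr4a3 had a dye term of -4.11 ± 0.57 (adjusted p = 0.00400), with Cy5 values of -3.48 to -0.30 and Cy3 values of 1.41 to 4.83 that did not overlap. Nr4a2 had -3.16 ± 0.46 (adjusted p = 0.0282), below 0 on 5 of 5 Cy5 arrays and above 0 on 6 of 7 Cy3 arrays. Rxra had -2.42 ± 0.51 (adjusted p = 0.0389), below 0 on 8 of 8 and above 0 on 9 of 11. The call of Rxra held under 1 of 8 other settings. Counts and ranges by dye order cover all arrays with a value, while a dye term used only the organs where the gene was tested.

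Esr2, Hnf4a and Vdr followed at -2.76, -2.55 and -2.37 without passing. Vdr was above 0 on all 8 Cy3 arrays and on 5 of 10 Cy5 arrays. The dye term was negative for 25 of 30 members, against 53.5% of all rows, and its median was -0.48 in members and -0.04 in all rows. The largest positive terms were 0.99 for Nr1i3, 0.60 for Nr2f1, 0.55 for Ppard, 0.22 for Rxrg and 0.19 for Rara. The dye term of Nr4a1, the gene that helped to choose the direction, was -0.09 ± 0.15. The dye orders had opposite signs in 92 of 162 combinations of members and organs (56.8%), where all rows gave 52.3% in lung, 49.1% in spleen, 51.3% in testis, 53.5% in skeletal muscle, 54.7% in heart and 56.3% in brown adipose tissue. Read as Cy5 over Cy3 in place of mutant over wild type, the dye terms of Nr4a2 and Nr4a3 would be 0.51 and 0.35, and Nr4a1 would have a term of -1.45 (adjusted p = 0.00508).

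**Figure D4:**
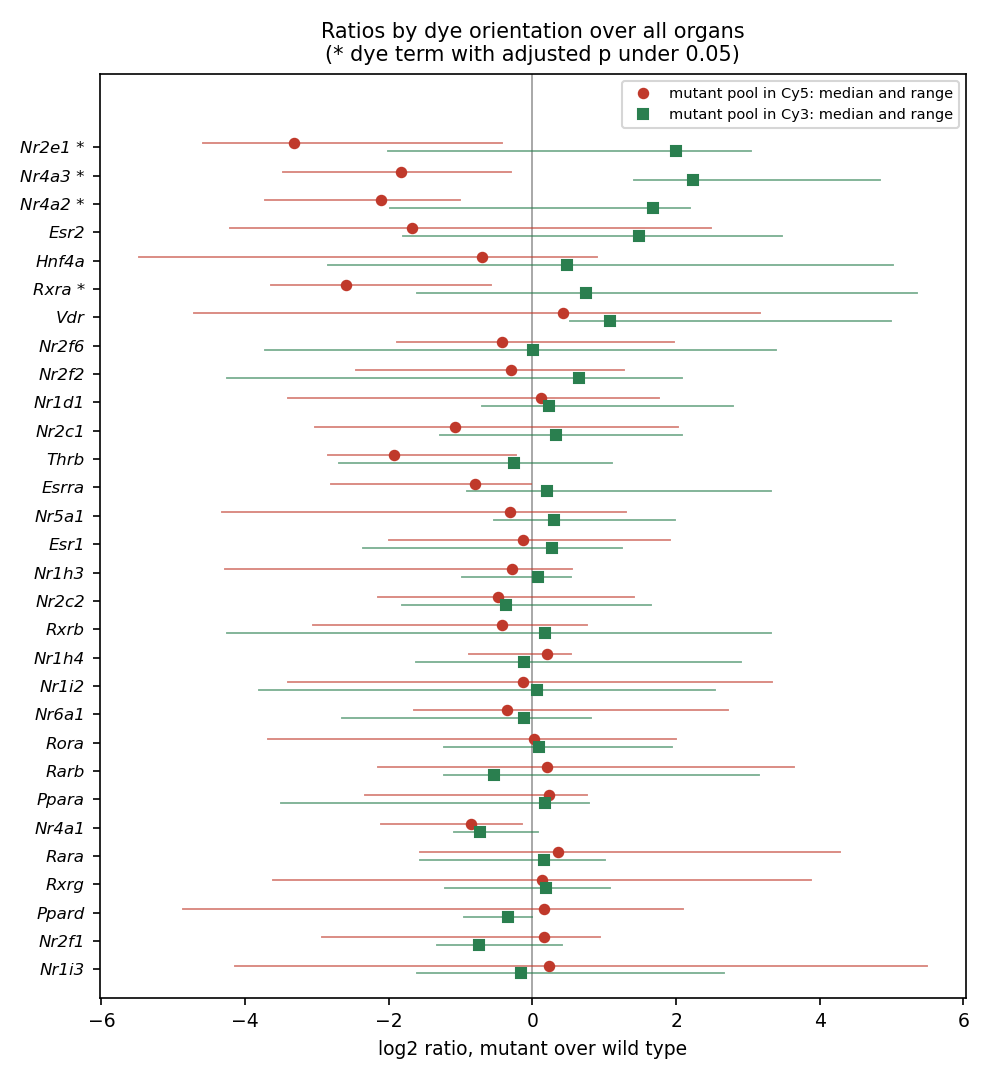
Log2 ratio, mutant over wild type (x axis), of the 30 members with a dye term (rows, sorted by it). Circles and squares are the medians and lines the ranges over arrays where Cy5 (circles) or Cy3 (squares) marked the mutant pool, and a star marks an adjusted p under 0.05. Nr2e1, Nr4a3, Nr4a2 and Rxra have Cy5 medians of -3.32, -1.83, -2.11 and -2.59 and Cy3 medians of 2.00, 2.23, 1.67 and 0.75, while both medians of Nr4a1 are below 0. Medians and ranges include organs where a gene was not tested.

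Members differed in how often their values lay on the whole-number steps. Channel signals were not used here, so that such values come from a few signal units was not tested. Of 986 member values of single probes, 213 (21.6%) lay on steps, against 18.8% of all values. The share was 36.0% in brown adipose tissue and 33.3% in heart, and 22.2%, 15.0%, 10.6% and 8.33% in skeletal muscle, lung, testis and spleen. By gene it was highest for Nr2f6 (9 of 15), Esrrb (7 of 14), Rarg (6 of 13), Nr2f2 (5 of 13) and Nr1i2 (9 of 26). It was lowest for Esr2 (0 of 16), Nr1h3 (1 of 24), Nr4a1 (1 of 22) and Rxrb (1 of 17), with Nr4a2 at 1 of 12 and Nr4a3 at 2 of 18. When the values on steps were left out, an alternative added after the data were seen, none of the Nr4a1 values of heart and brown fat was among them, so its ratios there stayed the same by construction, with adjusted p = 0.0314 in heart and 0.000898 in brown fat. The members with a dye term fell to 1, Nr4a3 (-4.39, adjusted p = 0.00188). Nr2e1 and Nr4a2 then had too few values for a test, and Rxra missed the threshold at -1.93 (adjusted p = 0.139).

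**Figure D5:**
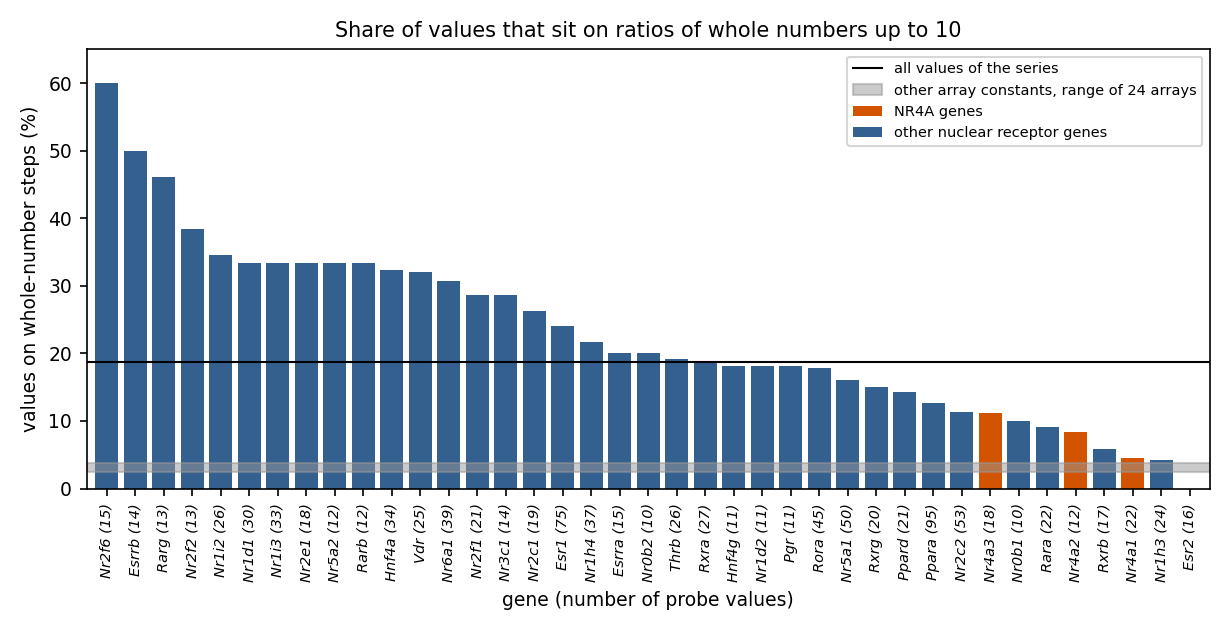
Share of a gene's probe values, in percent (y axis), that lie on log2 ratios of whole numbers up to 10 plus the array's constant, for the 39 nuclear receptor genes with a probe (x axis, number of values in brackets). The line is the share over all values (18.8%). The grey band is the range over arrays of the median share over all constants tried (2.48% to 3.71%). Nr4a1, Nr4a2 and Nr4a3 lie low, at 4.55%, 8.33% and 11.1%, and Nr2f6 is highest at 60.0%.

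Tests across organs gave no further call. Of 13 members tested in all organs, 0 differed between organs in limma's F test (all rows 0.305%), with 1 at an unadjusted p below 0.05, Nr4a1 (all rows 5.83%). For a mean ratio over organs, 0 of 13 passed (all rows 0%), with 2 at the unadjusted threshold, Nr4a1 and Nr1h3 (all rows 5.51%). One sign on every array of an organ was seen in 38 of 162 combinations (23.5%), and in 33 of 156 (21.2%) without Nr4a1. With Nr4a1 included, the share was 34.6% in spleen (all rows 17.7%), 33.3% in heart (15.8%) and 29.2% in skeletal muscle (20.2%). Lung had 20.7% (17.1%), testis 17.4% (16.8%) and brown adipose tissue 11.1% (13.9%). These shares were not split by the number of arrays, and 1 sign arises more easily on 3 arrays than on 4. For genes tested in fewer than 6 organs, the share of all rows with 1 sign over organs was not counted.

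Genes that work with the receptors were read from 13 lists of coactivators, corepressors, chaperones, ligand enzymes and carriers, and targets, 119 measured genes of 190. Between 87 and 113 could be tested per organ, and the medians of the ratios lay between -0.14 in lung and 0.12 in testis. The 1 gene that passed was Thrsp, a thyroid hormone target that promotes fat synthesis, in lung, where 0.17% of all rows passed. Its ratios there were -0.96 and -1.41 in Cy5 and -1.24 and -1.45 in Cy3, all below 0, with a fitted -1.26 ± 0.19 (adjusted p = 0.00520), 2.40-fold lower. In spleen Thrsp had -1.65 in Cy5 and -1.87 and -1.17 in Cy3 (adjusted p = 0.157), and in brown adipose tissue it was at -0.08. Beside it in lung, the fast skeletal muscle genes had medians of -2.23 to -1.30 per array, and the 5 adipocyte and 5 brown adipocyte markers tested had median ratios of 0.89 and -0.33 with none past the test. Their part in the lower Thrsp was not tested. No coactivator, corepressor or chaperone passed in any organ. Over all lists, an unadjusted limma p below 0.05 was reached by 10 of 97 genes in lung (all rows 8.52%) and 7 of 95 in spleen (5.55%). In testis it was 11 of 100 (6.23%), and in skeletal muscle 5 of 87 (4.78%). Heart had 10 of 100 (10.4%) and brown adipose tissue 6 of 113 (4.81%).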

How the data were processed

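The deposited values are log2 ratios, 1 per probe and array, made by the authors. Background correction, software, direction and centring: not given in the sources used here. A base of 2 follows from the values, since repeated values differ by the log2 of whole-number ratios. Values above 12 in size (1.24%, a separate mode from 15.7) were taken as missing. All 24 columns belong to a sample, and columns without one number 0. Of 20205 probes, 13891 have 1 symbol in the platform annotation, 5 several and 6309 none, and averaging left 16148 rows. limma 3.58.1 (R 4.3.3; lmFit, eBayes, arrayWeights) was fitted to all 24 arrays with 6 organ coefficients and 1 dye term, and p-values were adjusted over all rows of an organ. The procedure was tested on simulated data. The number of arrays limits the precision.

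Members and lists were chosen with earlier results of these data known. Named are the NR4A genes, members past a test, up to 3 members per organ and direction with 1 sign on every array, the 5 largest dye terms each way, and members with 1 sign in every organ tested. Names beyond these, such as Nr1h4, Nr1d2, Pgr and the values by role, were chosen after values were seen. Alternatives changed centring, weights, dye term, missing values, probes and direction. Promoters were searched with Python 3.11.15 and pandas 2.3.3.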

Additional observations from a re-analysis of the deposited data

Results flagged for a closer look

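Of 18 groups of 4 arrays examined for a single array far from the others, 4 were flagged. The groups were the NR4A genes and the up to 3 members per organ and direction with the largest ratios of 1 sign. A single far array enlarges a ratio and so helps a group to be chosen. The nominal rate of about 1 in 20 therefore does not apply to them. Ppard in testis was at -4.87 on array 2, against -0.95 to -0.32 on the others. Vdr in testis was at 4.99 on array 4, against 0.93 to 1.22. Esr1 in skeletal muscle was at -2.36 on array 3, against -0.81 to -0.52. Nr4a1 in lung was at -0.85 on array 3, against -0.26 to -0.14.

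Some members had every array of 1 organ above 0 and every array of another below. Esr1 was higher in heart than in skeletal muscle by 1.53 and in lung than in skeletal muscle by 2.08, and its F test over organs had an adjusted p of 0.855. Nr1i2 was higher in spleen than in heart by 2.80 and than in lung by 1.51, a difference that was not tested. Nr1i3 was higher in spleen than in heart by 2.11 and than in skeletal muscle by 3.29 (F test adjusted p = 0.941). Nr6a1 was higher in spleen than in heart by 1.85 and than in skeletal muscle by 2.10 (F test adjusted p = 0.938). All are differences of fitted log2 ratios.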

How the results depend on the processing

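Nr4a1 passed in brown adipose tissue and heart in the reported analysis, and the number of members past the test in heart was 0 under these alternatives: arrays centred and scaled, equal weights, no centring with equal weights, no dye term, a dye term for each organ, extreme values kept, ratios read as Cy5 over Cy3, complete probes only, the replicate block, and each organ alone. In brown adipose tissue it was 0 with equal weights, with no centring and equal weights, with extreme values kept, with ratios read as Cy5 over Cy3 and with the organ alone. In skeletal muscle it was 1 (Nr4a1) with equal weights, with 1 weight per array and with no centring and equal weights (adjusted p = 0.00994, 0.0376 and 0.00178). In lung it was 1 (Hnf4a) with each probe kept apart. Members with a dye term numbered 2 when scaled, 1 read as Cy5 over Cy3, 0 over complete probes and 1 without values on steps. Read as Cy5 over Cy3, the dye terms of Nr4a2 and Nr4a3 reversed to 0.51 and 0.35. Leaving out 1 array at a time gave 0 to 1 members in heart, 0 to 1 in brown adipose tissue and 2 to 5 with a dye term. Over the 24 arrays left out in turn, Nr4a1 passed 18 times in heart and 23 times in brown adipose tissue. Nr4a1 passed in heart under 4 of 14 alternatives and in brown adipose tissue under 9 of 14, with adjusted p from 0.00661 to 1 and from 0.000898 to 1. The cause of these changes was not tested.

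Whether replicate numbers pair the arrays was not settled. Same-numbered arrays of different organs had a median correlation of -0.04 (1 of 60 pairs over 0.1), and differently numbered ones 0.02 (32 of 180). These are residuals after organ means and a dye term were removed. That step lowers correlations within a dye order, which same-numbered arrays share, so the values cannot exclude a pairing. With the replicate block in place of the dye term, Nr4a1 had an adjusted p of 0.0657 in heart and 0.0143 in brown adipose tissue. Over all rows, the calls were 21, 17, 2, 15, 23 and 3 in lung, spleen, testis, skeletal muscle, heart and brown adipose tissue, and 4, 144, 0, 617, 0 and 0 with equal weights. Without centring and with equal weights they were 10, 187, 0, 736, 0 and 0. With 1 weight per array, skeletal muscle had 262 and heart 43, and read as Cy5 over Cy3 heart had 266. With each probe kept apart heart had 205. Signal over background was not used here, so what it limits was not tested.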
